A study of Mus musculus with 9 samples.

Results

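The genes described here are 10 components of the complexes that form at the receptors of tumor necrosis factor (TNF) and of the switch from these complexes to cell death. They were chosen by name from the 56748 genes of the count table, with earlier results of these data known. They are the receptors Tnfrsf1a and Tnfrsf1b, the adaptors Traf1, Traf2 and Traf3, the kinase Ripk1, the ubiquitin ligases Birc2 and Birc3, the protease Casp8 and its relative Cflar. All 10 had reads in every library and passed the filter on low counts, as did 13812 of all genes. RNA was sequenced from MLO-Y4 cells, a mouse line with features of osteocytes, that shared a transwell with primary articular chondrocytes of C57BL/6J mouse pups, so that soluble factors could pass between them. The control cells (n = 3) were paired with unstimulated chondrocytes. The 24 h and 48 h groups (n = 3 each) are named for the length of their co-culture with chondrocytes given 10 ng/mL interleukin-1β (IL-1β) for 6 h beforehand. How long the control cells were cultured is not in the labels, so stimulation of the chondrocytes and time in co-culture cannot be told apart in a difference from control. The labels call the cell line of the 48 h samples MLO-Y5, MLO-Y6 and MLO-Y7, whereas the protocols name MLO-Y4 throughout. They also do not say whether samples of a group came from separate cultures, so the p-values measure the spread between these samples, which may be technical.

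When TNF binds TNFR1, the product of Tnfrsf1a, the adaptor TRADD and the kinase RIPK1 are drawn to the receptor, together with TRAF2 and the ubiquitin ligases cIAP1 and cIAP2, the products of Birc2 and Birc3. Ubiquitin chains added in this complex (complex I) recruit the kinases that activate NF-kB. When ubiquitination fails, RIPK1 moves to a complex with FADD and caspase-8, where c-FLIP, the product of Cflar, restrains the protease. If caspase-8 is blocked, RIPK1 can engage RIPK3, which phosphorylates MLKL and opens the plasma membrane, a lytic death called necroptosis. TNFR2, the product of Tnfrsf1b, lacks a death domain and binds TRAF2 directly. TRAF3 together with TRAF2 and the cIAPs keeps the kinase NIK, the product of Map3k14, at a low level and so holds the alternative NF-kB arm in check.

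Total counts ranged from 12250628 to 18515456 per library, with the 48 h libraries the deepest. Of 12 osteocyte and osteoblast markers, Mepe and Fgf23 were at 0 counts in every library, Sost reached at most 1 and Dmp1 at most 6, so these markers of mature osteocytes were at or near 0. Other markers of the list were present, with 151 to 363 counts per library for Phex, 2640 to 4275 for Pdpn and 17221 to 45720 for Gja1. Cd44 had 3758 to 5509 counts, Bglap 45 to 112 and Alpl 338 to 485. Col1a1 had 15859 to 22103 and Runx2 664 to 1256. Of 10 chondrocyte markers, Acan, Col9a1 and Cnmd were at 0 and Col2a1 reached at most 7 counts, while Sox9 and Prg4 were abundant in all groups. The summed level of the chondrocyte list was 1681 to 1716 CPM (read counts relative to the library total) in control, 1565 to 1649 CPM at 24 h and 2127 to 2216 CPM at 48 h, and that of the osteocyte and osteoblast list 3329 to 3533, 3436 to 3484 and 4109 to 4185 CPM. Prg4 made up most of the chondrocyte sum, at a mean of 1576, 1493 and 2047 CPM. Gja1 had the largest mean of the other list, at 1498, 1637 and 2413 CPM. At 48 h versus control, 3 chondrocyte markers were higher and 1 was lower, and 3 osteocyte and osteoblast markers were higher and 4 were lower. The higher chondrocyte markers were Prg4, Sox9 and Comp (at most 21 counts), and the lower was Matn3. The higher osteocyte and osteoblast markers were Phex, Pdpn and Gja1, and the lower were Cd44, Bglap, Alpl and Col1a1. Of all genes, 46.4% were called in that comparison. Of 8 macrophage and leukocyte markers, Adgre1, Itgam and Cd3e were at 0, and the list summed to 18.6 to 20.4 CPM in control, 24.1 to 26.3 CPM at 24 h and 20.9 to 24.2 CPM at 48 h. Most of this sum was Cd14, at a mean of 13.3 CPM in control, 20.5 CPM at 24 h and 16.0 CPM at 48 h. Against control at 24 h Cd14 was higher (edgeR adjusted p = 0.000304), Csf1r was lower (0.0377) and Cd68 was not called. Against control at 48 h Cd14 alone was called, as higher. The part of these shifts in the results was not tested. In bulk RNA, fewer cells of a type and less RNA per cell cannot be told apart.

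The sequences before the start sites of 5 members are shown because these genes carry the contrasts described next: Traf1 and Traf3 fell at 48 h, Tnfrsf1b rose, and of the neighbouring genes Birc2 and Birc3 only the latter was called. Each run is the 250 bases that end just before the start site, 5′ to 3′ on the strand of the gene, from the RefSeq promoter table of build GRCm38.p6. Each was searched for only in and around its own gene in GRCm39 and matched once there. The matches lay at chr2:34851785-34852034 for Traf1, chr12:111132554-111132803 for Traf3, chr4:144973441-144973690 for Tnfrsf1b, chr9:7837059-7837308 for Birc2 and chr9:7873172-7873421 for Birc3, with Traf3 on the plus strand and the others on the minus strand. Capitals mark motif matches.
Traf1: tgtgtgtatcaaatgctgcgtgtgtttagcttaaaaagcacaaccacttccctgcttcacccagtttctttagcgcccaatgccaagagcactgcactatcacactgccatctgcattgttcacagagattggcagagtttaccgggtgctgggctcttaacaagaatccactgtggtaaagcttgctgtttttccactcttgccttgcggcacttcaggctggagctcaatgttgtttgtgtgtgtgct
Traf3: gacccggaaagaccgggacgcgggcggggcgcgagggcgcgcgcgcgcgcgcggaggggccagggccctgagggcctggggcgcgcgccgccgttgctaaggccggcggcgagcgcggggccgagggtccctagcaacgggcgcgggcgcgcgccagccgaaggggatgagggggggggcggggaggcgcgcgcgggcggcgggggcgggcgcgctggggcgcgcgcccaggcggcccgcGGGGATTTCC
Tnfrsf1b: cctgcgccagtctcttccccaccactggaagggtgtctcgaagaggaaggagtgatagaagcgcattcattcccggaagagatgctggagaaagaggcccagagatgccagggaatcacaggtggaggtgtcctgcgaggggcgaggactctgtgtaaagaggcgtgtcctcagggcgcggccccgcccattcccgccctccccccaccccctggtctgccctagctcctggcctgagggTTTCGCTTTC
Birc2: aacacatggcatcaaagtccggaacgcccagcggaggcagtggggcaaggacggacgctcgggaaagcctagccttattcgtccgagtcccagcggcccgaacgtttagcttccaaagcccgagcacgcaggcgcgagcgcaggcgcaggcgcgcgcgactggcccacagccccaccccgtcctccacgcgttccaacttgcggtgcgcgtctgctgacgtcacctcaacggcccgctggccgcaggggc
Birc3: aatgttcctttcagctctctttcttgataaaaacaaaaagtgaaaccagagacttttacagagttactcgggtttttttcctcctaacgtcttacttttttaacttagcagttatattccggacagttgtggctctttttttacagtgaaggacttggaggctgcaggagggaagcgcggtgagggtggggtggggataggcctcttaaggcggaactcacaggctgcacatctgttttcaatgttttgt
Motifs were searched on both strands of these bases in the promoters of all 10 members, 12 sequences in all, and in 32851 promoters of the table. Birc2 and Ripk1 had a further sequence each, for Birc2 at chr9:7836808-7837057, which is not printed. The Casp8 start site used lies 7128 bases inside the gene as given with the counts, and that of Tnfrsf1a 361 bases inside. For these genes the search does not cover the bases just before the outer start. The kB consensus bound by NF-kB was held by Traf3 alone among the members, as GGGGATTTCC in the last 10 bases before its start site, and by 7.25% of all promoters. The core of the interferon-stimulated response element, GAAA on both sides of any 2 bases, was held by Tnfrsf1b alone, as TTTCGCTTTC, its reverse complement on the strand printed, and by 2.98% of all promoters. No member held TGANTCA, an AP-1 site found in 6.75% of promoters, or ACGTG, the core of the hypoxia response element found in 16.6%. The Traf3 sequence was also the richest in G and C of the 5 shown, at 85.2%, against 43.6% for Birc3 and 48.0% for Traf1. A match describes the letters of this window and is not evidence of binding.

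Expression per length placed the receptor of TNF far above the other components (CPM divided by gene length in kilobases). In control cells Tnfrsf1a stood at 115 ± 4.72 CPM per kb (SD, n = 3, as for all group means here) and Tnfrsf1b at 36.4 ± 2.10 CPM per kb. Casp8 followed at 13.8 ± 0.610 CPM per kb, then Traf3 at 9.60 ± 1.05 and Traf2 at 9.37 ± 0.616 CPM per kb, whose libraries overlapped. Ripk1 reached 7.54 ± 0.119, Cflar 4.90 ± 0.466, Birc2 3.91 ± 0.211, Birc3 1.85 ± 0.399 and Traf1 1.03 ± 0.224 CPM per kb. Every other pair of neighbours in this order had libraries that did not overlap. At 24 h the order was the same, again with overlap between Traf3 and Traf2 alone. At 48 h Traf3, at 7.66 ± 0.432 CPM per kb, lay below Traf2 at 9.0 ± 0.327 and Ripk1 at 8.96 ± 0.207 CPM per kb, and the latter pair overlapped. Traf1 stayed last at 0.332 ± 0.0590 CPM per kb. The lengths are those given by the authors in the table, and without division by them the middle of the order changed, with Casp8 moving from rank 3 to rank 7 in control. Cflar, at rank 7 per length in every group, then stood at rank 5 in control, 4 at 24 h and 3 at 48 h. The order of Casp8 and Cflar was thus reversed in every group.

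**Figure D1:**
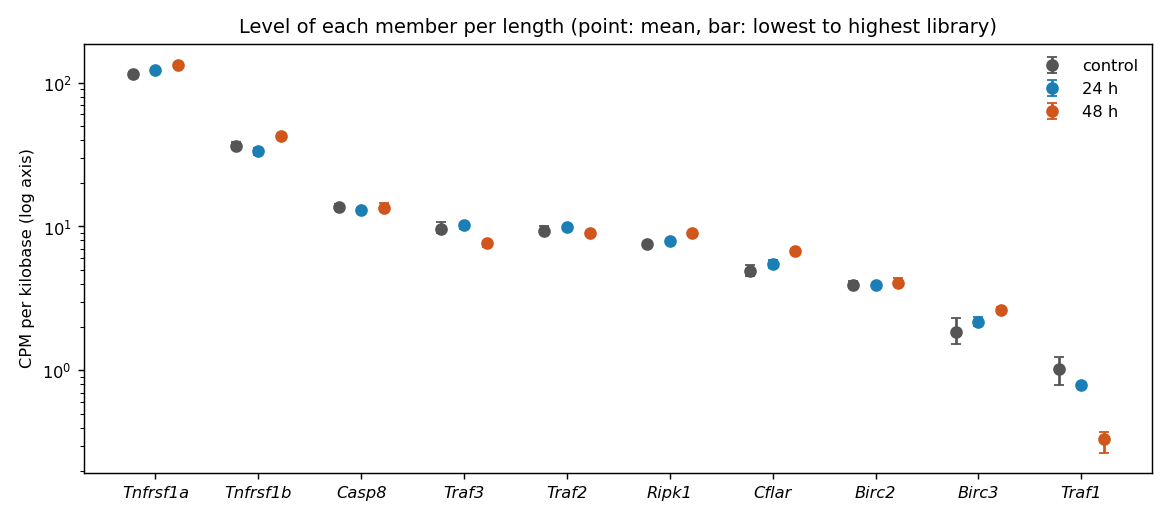
Expression of the 10 members in CPM per kilobase on a log axis, with a point for the mean of 3 libraries per group and a bar from the lowest to the highest library. Tnfrsf1a led in every group and Traf1 was last in every group, falling to 0.332 CPM per kb at 48 h.

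No member was called different from control at 24 h, and 7 of the 10 were at 48 h. Against control at 48 h both receptors, Ripk1, Birc3 and Cflar were higher, Traf1 and Traf3 were lower, and Traf2, Birc2 and Casp8 did not pass the test. These calls are adjusted p-values under 0.05 from the edgeR quasi-likelihood test over all 13812 genes. At 24 h 6.15% of all genes tested were called, 3.25% higher and 2.9% lower, against 0 of 10 members. Cflar (higher) and Traf1 (lower) had an unadjusted p under 0.05 at 24 h, as did 1287 genes higher and 1290 lower among all tested, DESeq2 and limma-voom called no member, and the lowest adjusted edgeR p was that of Cflar, 0.185. All 24 h libraries of Tnfrsf1a and Ripk1 lay above all control libraries, as in 10.3% of all genes, and 21.5% had groups without overlap in either direction. Against control at 48 h, 46.4% of all genes were called, 22% higher and 24.4% lower, so the members' count of 7 of 10, 5 of them higher, stands beside a large background. All 7 called members had groups without overlap, as did 53.1% of all genes. Between 24 h and 48 h 4 members were higher and 2 lower, against 49.1% of all genes called, 23.7% higher and 25.4% lower. Over that interval the libraries of 5 members lay wholly higher and of 3 wholly lower, and 59.4% of all genes had groups without overlap. The joint test of the 3 groups called the same 7 members and 51.9% of all genes. Both comparisons with control share its libraries. The median log2 fold change of the members was 0.07 at 24 h and 0.13 at 48 h versus control, and that of all genes tested lay within 0.01 of 0.

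**Figure D2:**
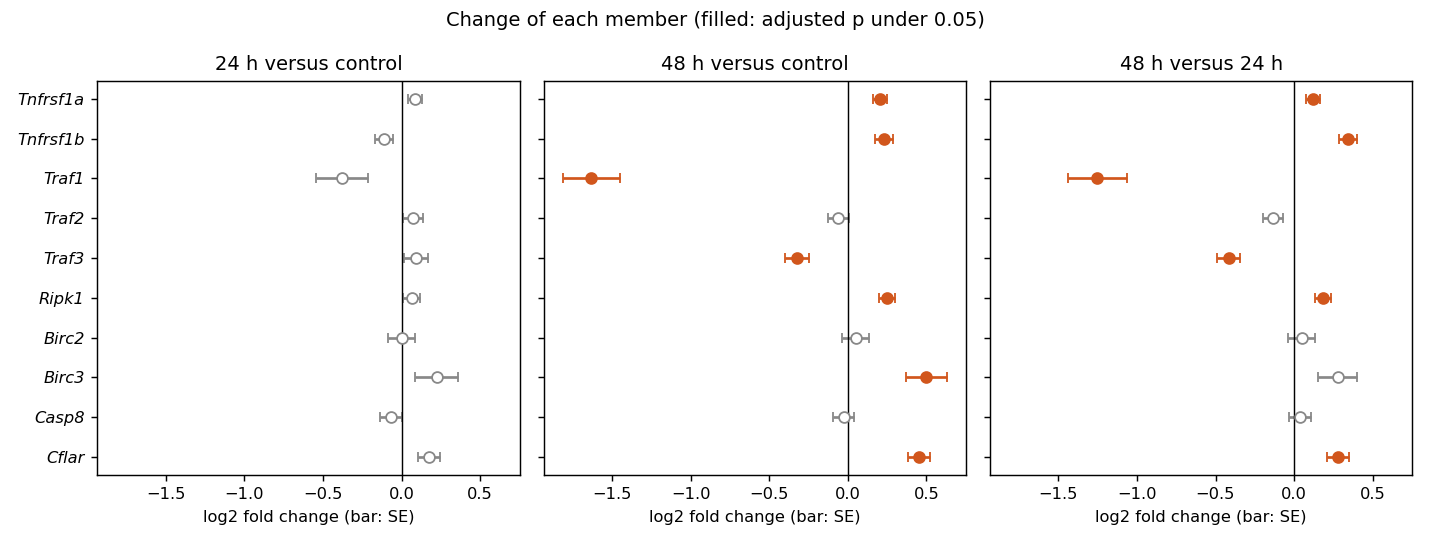
Log2 fold change of each member in the 3 comparisons, with bars for the standard error and filled points for an adjusted p under 0.05. At 24 h versus control no point is filled, and at 48 h versus control Traf1 lies farthest from 0, at -1.63.

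**Figure D3:**
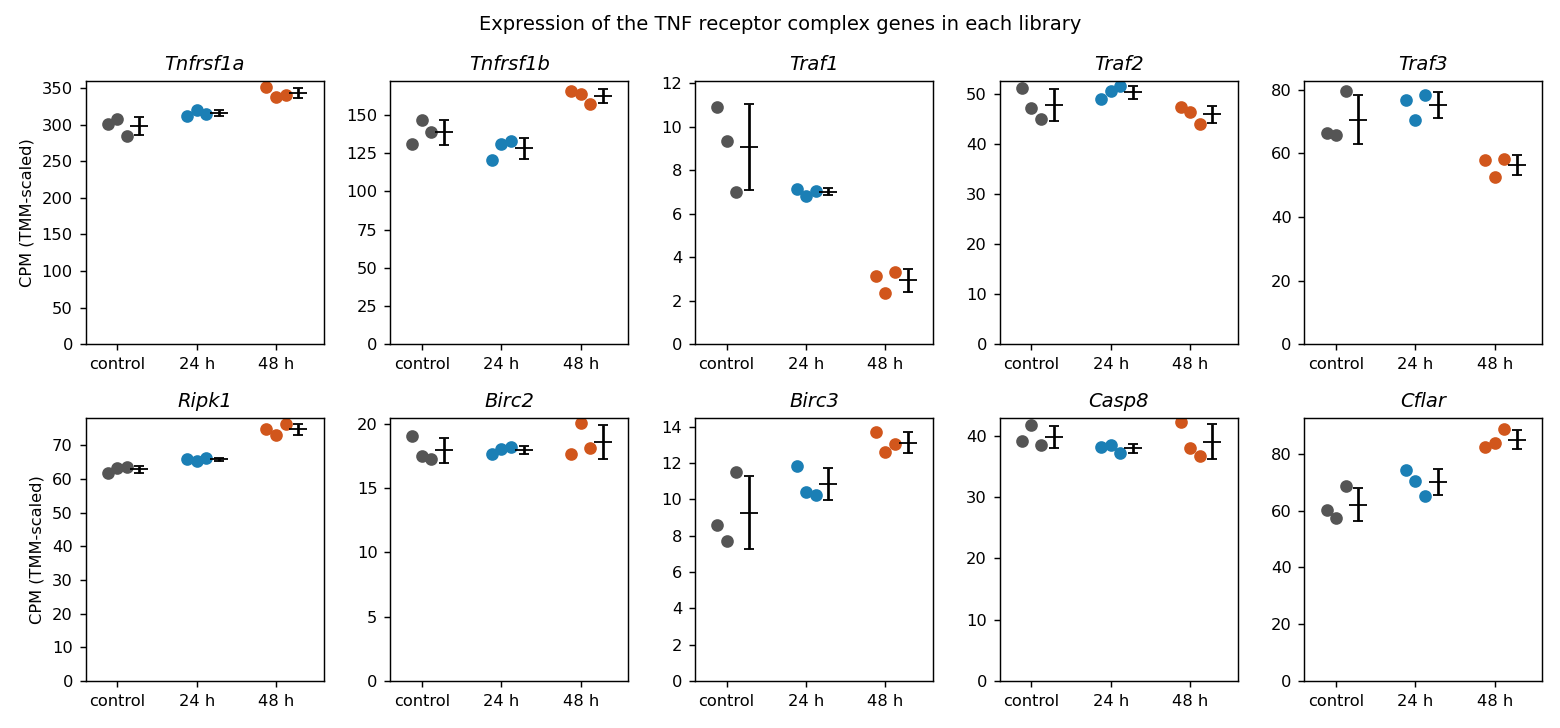
CPM of each member in each library, with 3 points per group and the mean ± SD beside them, on axes that start at 0. The 48 h libraries of Tnfrsf1a, Tnfrsf1b, Ripk1, Birc3 and Cflar lie above all others, and those of Traf1 and Traf3 lie below all others.

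Both TNF receptors rose by a small margin at 48 h. Tnfrsf1a (ENSMUSG00000030341, GRCm39 chromosome 6, 125326325 to 125339447, plus strand) was measured at 300.3, 308 and 284 CPM in the control libraries, at 312, 320.1 and 315 CPM at 24 h and at 352, 338 and 340.3 CPM at 48 h. The groups followed each other without overlap, the 24 h libraries lying between the others. The fold change was 1.15 at 48 h versus control (95% interval 1.08 to 1.23, log2 0.21, SE 0.05, edgeR adjusted p = 0.00111) and 1.06 at 24 h (0.993 to 1.13, adjusted p = 0.335). From 24 h to 48 h it was 1.09 (adjusted p = 0.0350), a call that was lost when any of 5 single libraries was left out, with adjusted p between 0.0629 and 0.137 (24 h replicates 1 and 3, and each 48 h replicate).

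Tnfrsf1b (ENSMUSG00000028599, chromosome 4, 144940033 to 144973440, minus strand) was likewise higher at 48 h and not called at 24 h. It stood at 131, 147 and 139 CPM in control, at 121, 131 and 133 CPM at 24 h and at 166, 164 and 158 CPM at 48 h. The control and 24 h libraries overlapped, and all 48 h libraries lay above both. The fold change was 1.17 at 48 h versus control (1.08 to 1.27, log2 0.23, SE 0.06, edgeR adjusted p = 0.00302), 0.925 at 24 h versus control (0.850 to 1.01, adjusted p = 0.310) and 1.27 from 24 h to 48 h (adjusted p = 7.1e-05).

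The count ratio of Tnfrsf1b to Tnfrsf1a within a library, which needs no scaling between libraries, was 0.436, 0.476 and 0.488 in control, 0.386, 0.410 and 0.422 at 24 h and 0.471, 0.485 and 0.463 at 48 h. It was lowest at 24 h, where no library reached the level of any other group. An exact permutation test over the 3 groups gave p = 0.0321, and p = 0.0482 after adjustment over the 3 ratios tested (smallest p possible 0.00357). It asks whether the groups differ at all and not which group is lowest or highest. The adjusted p rose above 0.05, up to 0.102, when control replicate 2 or any single 24 h or 48 h library was left out.

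The adaptors fell or stayed near control. Traf1, an adaptor that binds TRAF2 and the cIAPs but has no ubiquitin ligase domain of its own, showed the largest change of the members. Traf1 (ENSMUSG00000026875, chromosome 2, 34831762 to 34851784, minus strand) was measured at 10.9, 9.32 and 7.0 CPM in control, at 7.14, 6.84 and 7.06 CPM at 24 h and at 3.14, 2.34 and 3.31 CPM at 48 h. The 48 h libraries lay below all others, while a single control library, replicate 3, lay inside the range at 24 h. Raw counts were low, 93 to 174 in control and 39 to 62 at 48 h. The level at 48 h was 0.323 of control (0.248 to 0.421, log2 -1.63, SE 0.18, edgeR adjusted p = 7.04e-07) and 0.420 of that at 24 h (adjusted p = 1.8e-05). At 24 h versus control the ratio was 0.769 (0.604 to 0.978, log2 -0.38, adjusted p = 0.219), and without control replicate 3 it was called, with a log2 value of -0.53 (adjusted p = 0.0372).

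Traf3, which acts against the alternative NF-kB arm, also fell at 48 h. Traf3 (ENSMUSG00000021277, chromosome 12, 111132804 to 111233587, plus strand), whose promoter held the kB match shown above, stood at 66.4, 65.7 and 79.5 CPM in control, at 76.8, 70.4 and 78.2 CPM at 24 h and at 57.9, 52.6 and 58.3 CPM at 48 h. The control and 24 h libraries overlapped and the 48 h libraries lay below both. The level at 48 h was 0.799 of control (0.716 to 0.890, log2 -0.32, SE 0.07, edgeR adjusted p = 0.00156) and 0.750 of that at 24 h (adjusted p = 0.000133). At 24 h versus control the fold change was 1.07 (0.957 to 1.19, adjusted p = 0.567).

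Traf2, the adaptor that brings the cIAPs to both receptors, did not pass the test in any comparison. Traf2 (ENSMUSG00000026942, chromosome 2, 25407994 to 25436952, minus strand) stood at 47.8 ± 3.14 CPM in control, 50.4 ± 1.31 CPM at 24 h and 45.9 ± 1.67 CPM at 48 h. The interval of the fold change was 0.872 to 1.05 at 48 h versus control (edgeR adjusted p = 0.476) and 0.956 to 1.16 at 24 h. From 24 h to 48 h all libraries lay lower, with a fold change of 0.912 (0.830 to 1.00, adjusted p = 0.0964).

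Ripk1, the kinase that joins survival signalling and both forms of death, rose modestly at 48 h. Ripk1 (ENSMUSG00000021408, chromosome 13, 34186346 to 34221130, plus strand) was measured at 61.8, 63.3 and 63.7 CPM in control, at 65.9, 65.4 and 66.3 CPM at 24 h and at 74.7, 73.0 and 76.4 CPM at 48 h. The groups did not overlap at either step. The fold change was 1.19 at 48 h versus control (1.10 to 1.28, log2 0.25, SE 0.05, edgeR adjusted p = 0.000878), 1.05 at 24 h (0.967 to 1.13, adjusted p = 0.573) and 1.14 from 24 h to 48 h (adjusted p = 0.00792). The start of Ripk1 overlaps Serpinb6a on the opposite strand (34101901 to 34186777), a gene with 8123 to 10689 counts per library. Whether counting used the strand is not given in the sources used here, so reads of the shared bases cannot be assigned with certainty. Overlapping transcripts of Traf2, Traf3 and Casp8 reached at most 7 counts.

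The ubiquitin ligases are tandem neighbours on chromosome 9, 11634 bases apart with no gene between them. Birc3 was called at 48 h versus control and Birc2 was not, and the test of their ratio, given after their values, did not pass. Birc3 (ENSMUSG00000032000, 7848700 to 7873187, minus strand) stood at 8.60, 7.69 and 11.5 CPM in control, at 11.8, 10.4 and 10.2 CPM at 24 h and at 13.7, 12.6 and 13.0 CPM at 48 h. The control libraries were the most spread, with replicate 3 inside the 24 h range, and the 48 h libraries lay above all others. The fold change was 1.41 at 48 h versus control (1.17 to 1.71, log2 0.50, SE 0.13, edgeR adjusted p = 0.00421), 1.17 at 24 h (0.958 to 1.42, adjusted p = 0.411) and 1.21 from 24 h to 48 h (1.01 to 1.46, adjusted p = 0.0803). Leaving out control replicate 2 or 3 made the last of these a call (adjusted p = 0.0471 and 0.0321).

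Birc2 (ENSMUSG00000057367, 7818228 to 7837065, minus strand) stood at 17.9 ± 0.968 CPM in control, 18.0 ± 0.298 CPM at 24 h and 18.6 ± 1.31 CPM at 48 h. The libraries of all groups overlapped. The interval of its fold change was 0.879 to 1.14 at 24 h and 0.911 to 1.18 at 48 h versus control (edgeR adjusted p = 1.00 and 0.677). The ratio of Birc3 to Birc2 counts was 0.452, 0.439 and 0.668 in control, 0.671, 0.578 and 0.562 at 24 h and 0.779, 0.627 and 0.720 at 48 h. The groups overlapped, and the exact permutation test over the groups gave p = 0.118 (adjusted p = 0.118). Control replicate 3 decided this, since the adjusted p was 0.0107 without it and the difference between 48 h and control then rose from 0.47 to 0.66 on the log2 scale.

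At the caspase-8 checkpoint the inhibitor rose and the protease did not pass the test. Cflar (ENSMUSG00000026031, chromosome 1, 58750667 to 58798043, plus strand) was measured at 60.1, 57.5 and 68.8 CPM in control, at 74.2, 70.6 and 65.2 CPM at 24 h and at 82.3, 83.9 and 88.8 CPM at 48 h. The 48 h libraries lay above all others, and control replicate 3 lay inside the 24 h range. The fold change was 1.37 at 48 h versus control (1.24 to 1.52, log2 0.45, SE 0.07, edgeR adjusted p = 3.21e-05), 1.13 at 24 h (1.02 to 1.25, log2 0.17, adjusted p = 0.185) and 1.21 from 24 h to 48 h (adjusted p = 0.00239). Without control replicate 3 the change at 24 h was called, with a log2 value of 0.26 (adjusted p = 0.0182).

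Casp8 (ENSMUSG00000026029, chromosome 1, 58834533 to 58886662, plus strand), which lies 36489 bases from Cflar with 1 gene between them, stood at 39.8 ± 1.77 CPM in control, 38.0 ± 0.755 CPM at 24 h and 39.0 ± 2.85 CPM at 48 h. The groups overlapped in every comparison. The interval of its fold change was 0.862 to 1.06 at 24 h and 0.887 to 1.09 at 48 h versus control (edgeR adjusted p = 0.682 and 0.778).

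The ratio of Cflar to Casp8 counts was 1.54, 1.38 and 1.79 in control, 1.94, 1.83 and 1.76 at 24 h and 1.95, 2.20 and 2.41 at 48 h. All 48 h libraries lay above all others. The means were 1.57 ± 0.208, 1.84 ± 0.0926 and 2.19 ± 0.232, and the exact permutation test over the groups gave p = 0.0107 (adjusted p = 0.0321 over the 3 ratios). These are ratios of read counts and not of molecules, since the genes differ in length. The adjusted p rose above 0.05, up to 0.0857, when control replicate 2, any 24 h library or 48 h replicate 2 or 3 was left out.

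**Figure D4:**
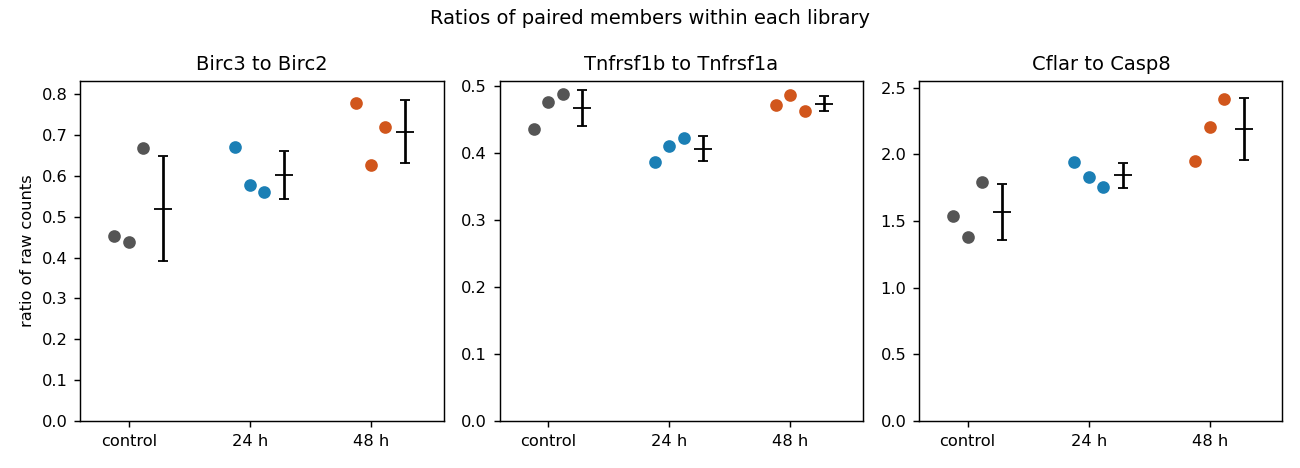
Ratios of raw counts within each library for Birc3 to Birc2, Tnfrsf1b to Tnfrsf1a and Cflar to Casp8, with 3 points per group, the mean ± SD beside them and axes that start at 0. The Cflar to Casp8 ratio is highest at 48 h, at 2.19, and the Tnfrsf1b to Tnfrsf1a ratio is lowest at 24 h, at 0.406.

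Around the members, 64 further genes of TNF receptor signalling were examined in 9 lists, of which 57 passed the filter. At 24 h versus control 1 of the 57 was higher and 0 were lower. At an unadjusted p under 0.05, 13 of the 57 were higher and 4 lower, beside 1287 higher and 1290 lower of the 13812 genes tested. DESeq2 called 3 higher, and 1 was called lower with no filter on low counts. At 48 h versus control 14 were higher and 10 lower (42.1%, against 46.4% of all genes), and from 24 h to 48 h 15 were higher and 17 lower (56.1%, against 49.1%). The shares of these last 2 comparisons lie near those of all genes. At 24 h versus control 1.75% of the 57 were called, against 6.15% of all genes. Over the same interval the libraries of 14 of the 57 lay wholly above control and of 5 wholly below. Among the 13812 genes tested 1428 lay wholly above and 1542 wholly below.

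Ligands of the receptors were scarce in these cells. Lta, Ltb and Tnfsf10 reached at most 3 counts in a library, and Fasl and Tnfsf14 had none. Tnf itself reached at most 24 counts, and its log2 value against control was 0.09 after 24 h and -0.13 after 48 h (edgeR adjusted p = 0.925 and 0.758). Tnfsf12, the ligand TWEAK, passed only from 24 h to 48 h, by 0.56 on the log2 scale (adjusted p = 0.0164, or 0.143 without 48 h replicate 1).

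Among the other receptors of the family, 7 of 9 were measured above the filter. Tnfrsf12a, the receptor of TWEAK, stood at 225, 254 and 225 CPM in control, 224, 239 and 232 CPM at 24 h and 90.3, 85.1 and 79.1 CPM at 48 h. Its groups did not overlap at 48 h versus control (log2 -1.47, edgeR adjusted p = 2.6e-12). Tnfrsf9, the costimulatory receptor 4-1BB, was the single pathway gene called at 24 h: it rose from 306, 319 and 310 CPM to 485, 465 and 491 CPM (log2 0.62, adjusted p = 3.6e-08) and stood at 375.5 to 399.5 CPM at 48 h, between the other groups (log2 0.32 versus control, adjusted p = 1.2e-05). Against control at 48 h the death receptor gene Fas rose by a log2 value of 0.75 (adjusted p = 0.00127) and Tnfrsf14 by 0.72 (adjusted p = 0.00103), whereas Tnfrsf10b, the murine receptor of TRAIL, fell by 0.37 (adjusted p = 0.000214). Tnfrsf25, with 18 to 76 counts per library, was higher from 24 h to 48 h (log2 0.97, adjusted p = 0.00327). Its means were 2.87 CPM in control, 1.68 CPM at 24 h and 3.28 CPM at 48 h. Against control it was not called at 24 h (log2 -0.76, adjusted p = 0.0953) or at 48 h (log2 0.20, adjusted p = 0.499).

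Of 5 genes that govern shedding of the receptors from the cell surface, 3 were higher and 1 lower at 48 h versus control. The shares of all genes were 22% higher and 24.4% lower. The sheddase Adam17 (log2 0.37, edgeR adjusted p = 3.4e-05) and its inhibitor Timp3 (log2 0.74, adjusted p = 1.7e-05) were both among the higher genes. Erap1, an aminopeptidase that promotes shedding of TNFR1, was lower (log2 -0.30, adjusted p = 0.000830).

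Of 16 adaptors, subunits of the linear ubiquitin ligase and kinases of complex I, 1 was higher at 48 h versus control. The other 15 were not called, in a comparison where 46.4% of all genes were. The called gene was Ikbke (log2 0.57, edgeR adjusted p = 7.4e-05), a kinase related to TBK1. Tradd, the first adaptor at TNFR1, had a log2 fold change of -0.02 (adjusted p = 0.879). From 24 h to 48 h, Ikbke and Tbk1 were higher (log2 0.31 and 0.20) and Mapkapk2, a kinase that phosphorylates RIPK1, and Tank were lower (log2 -0.31 and -0.23). The calls of Ikbke without 48 h replicate 1 (adjusted p = 0.0559) and of Tank without 24 h replicate 2 or 48 h replicate 3 (up to 0.133) were lost.

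Among the 6 deubiquitinases and their adaptors, 2 were higher and 1 lower at 48 h versus control, beside 22% and 24.4% of all genes. Tnfaip3, which encodes the NF-kB feedback inhibitor A20, rose from 12.7, 12.7 and 11.6 CPM in control to 19.9, 22.4 and 22.9 CPM, with no overlap (log2 0.82, edgeR adjusted p = 3.1e-06), and stood at 16.9, 13.9 and 13.8 CPM at 24 h (log2 0.27, adjusted p = 0.169). Tnip2, a partner of A20, rose by 0.48 (adjusted p = 0.000896). Otulin, which removes linear chains, fell by 0.25 (adjusted p = 0.0167), a call lost without control replicate 1 (0.187) or 48 h replicate 3 (0.0527). Cyld stood at 0.07 (adjusted p = 0.447) and was called without control replicate 3 (0.18, adjusted p = 0.0459). Spata2, the adaptor of CYLD, was lower from 24 h to 48 h (log2 -0.23, adjusted p = 0.0218). That call was lost without 24 h replicate 3 (0.148) or 48 h replicate 1 (0.127). It was also lost with scaling by library size only (0.052) and with thinning to the lowest library total (0.0575).

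In the death complex and among the caspases, 2 of 9 genes were higher and 2 lower at 48 h versus control. This is 44.4% called, beside 46.4% of all genes. The executioner Casp6 rose by 0.49 on the log2 scale (edgeR adjusted p = 4.4e-07) and the initiator Casp9 by 0.45 (adjusted p = 0.000135). Bid, a substrate of caspase-8 that carries its signal to mitochondria, fell from 61.9, 62.9 and 61.1 CPM to 37.8, 40.5 and 35.7 CPM (log2 -0.71, adjusted p = 3.7e-08), and the mitochondrial protease gene Htra2 fell by 0.18 (adjusted p = 0.0154, and up to 0.0799 without control replicate 2 or 48 h replicate 3). Fadd, the adaptor that joins caspase-8 to RIPK1, had a log2 fold change of 0.02 (adjusted p = 0.919).

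The necroptosis list moved in both directions, with 2 of 6 genes higher and 3 lower at 48 h versus control and none called at 24 h. Of all genes, 22% were higher and 24.4% lower at 48 h versus control, and 6.15% were called at 24 h. At 24 h 2 had a higher and 0 a lower value at an unadjusted p under 0.05, a level that 1287 and 1290 of the 13812 genes tested passed. Zbp1, a sensor of nucleic acids that engages RIPK3, stood at 23.4, 22.9 and 22.3 CPM in control, at 28.04, 27.9 and 23.9 CPM at 24 h and at 94.0, 89.3 and 86.1 CPM at 48 h. The 48 h libraries lay far above the others (log2 1.97, SE 0.07, edgeR adjusted p = 5.1e-13). Ticam1, an adaptor of Toll-like receptors that can also engage RIPK3, rose by 0.25 (adjusted p = 0.00721).

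The kinase and the effector of necroptosis went the other way. Ripk3 stood at 32.3, 34.1 and 34.0 CPM in control, at 35.7, 36.7 and 36.6 CPM at 24 h and at 28.9, 29.8 and 27.7 CPM at 48 h. Mlkl stood at 48.5, 49.7 and 47.5 CPM, at 51.3, 54.9 and 53.1 CPM and at 42.9, 41.3 and 40.4 CPM. In both genes the 24 h libraries were the highest and the 48 h libraries the lowest, without overlap. Log2 fold changes were -0.21 for Ripk3 (edgeR adjusted p = 0.0141) and -0.22 for Mlkl (adjusted p = 0.00547) at 48 h versus control. From 24 h to 48 h the values were -0.33 (adjusted p = 0.000390) and -0.35 (adjusted p = 8.1e-05). Against control at 24 h the values were 0.12 (adjusted p = 0.364) and 0.13 (adjusted p = 0.257). The call of Ripk3 at 48 h against control did not survive leaving out control replicate 3 (adjusted p = 0.0518) or 48 h replicate 3 (0.0728), or thinning to the lowest library total (0.0733). Pgam5, a mitochondrial phosphatase linked to necroptosis, fell by 0.53 (adjusted p = 6.2e-07).

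Beside the members Traf1, Traf2 and Traf3, the other TRAF genes gave 1 lower call of 3 at 48 h versus control, Traf7 (log2 -0.17, edgeR adjusted p = 0.0124, and up to 0.0808 without control replicate 1 or 48 h replicate 3). A lower call there was given to 24.4% of all genes. Traf4 was lower from 24 h to 48 h (log2 -0.22, adjusted p = 0.0467), a call kept under only 7 of 18 alternatives (lost without control replicate 1, any 24 h replicate, or 48 h replicate 1 or 2, up to 0.188). In the alternative NF-kB arm, Map3k14, whose product NIK is held low by TRAF3, TRAF2 and the cIAPs, rose from 50.7, 53.7 and 56.4 CPM in control to 73.8, 71.4 and 81.2 CPM at 48 h (log2 0.49, adjusted p = 5.7e-06). Its groups did not overlap, and at 24 h it stood at 52.5, 53.4 and 49.6 CPM. Nfkb2 and Relb, the transcription factors of that arm, were not called against control, with log2 fold changes at 48 h of -0.14 and 0.11 (adjusted p = 0.0964 and 0.293). Relb stood at 0.27 at 24 h versus control (adjusted p = 0.0600) and became a call on leaving out control replicate 2 (0.0340) or 24 h replicate 2 (0.0315), with DESeq2 (0.0403), no filter (0.00742), the replicate block (0.0428) and thinning (0.0449). Nfkb2 was lower from 24 h to 48 h (log2 -0.30, adjusted p = 0.00138).

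**Figure D5:**
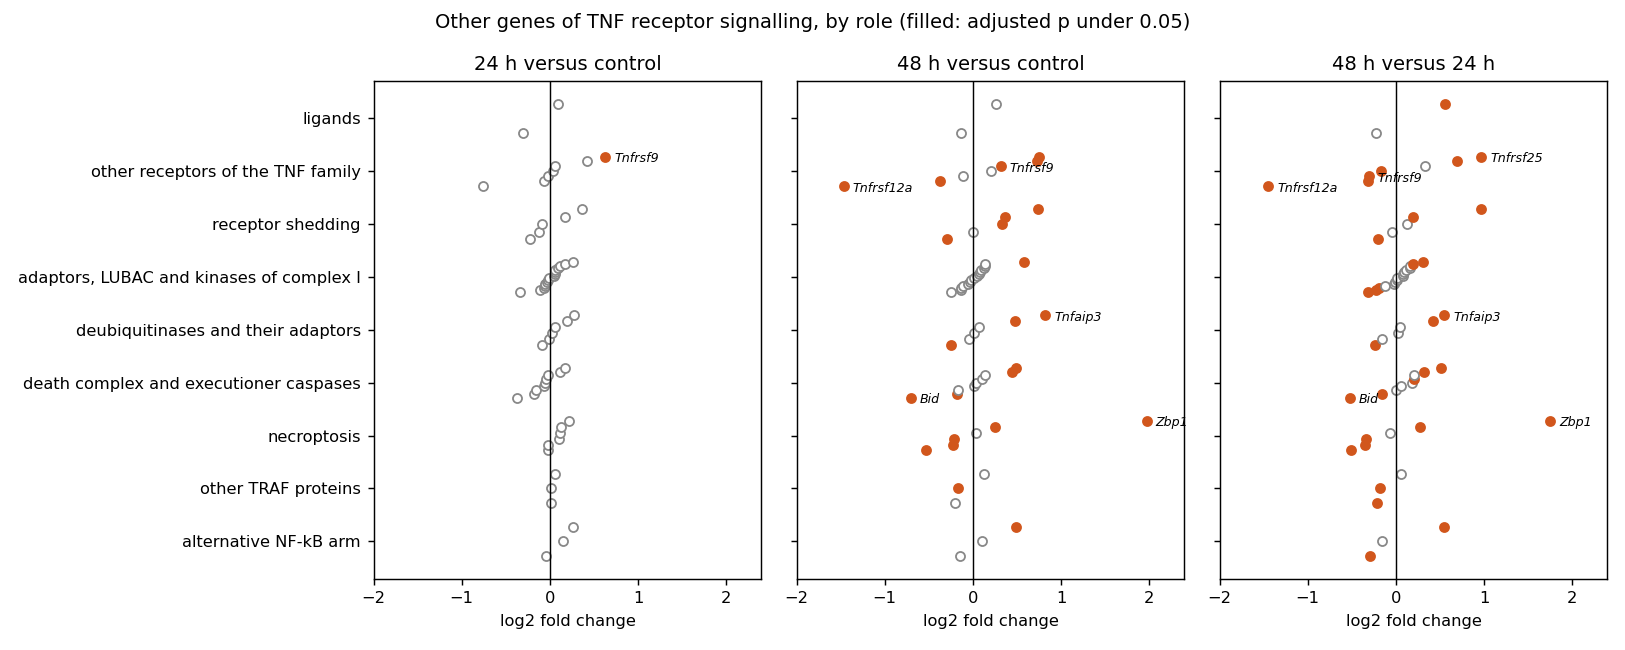
Log2 fold change of the 57 pathway genes tested, in 9 lists by role and 3 comparisons, with filled points for an adjusted p under 0.05. At 24 h versus control Tnfrsf9 alone is filled, and at 48 h versus control Zbp1 lies farthest to the right, at 1.97, and Tnfrsf12a farthest to the left, at -1.47.

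The pattern of Traf1 over the 9 libraries was compared with that of other genes, because it had the largest joint F statistic of the members. Of the tested protein-coding genes outside the members, Ptp4a3 (r = 0.986), Gtf2h4 (r = 0.984) and Chpf (r = 0.983) were the most like it by the Pearson correlation of log2 CPM, over libraries that share their groups and depth. Such values were common, since 985 of 11770 genes had an r above 0.9 with Traf1.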

How the data were processed

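RNA of 9 samples in 3 groups of 3 was measured by paired-end sequencing of directional libraries. The authors deposited a table of raw counts. As the labels and the study's methods state, reads were trimmed, aligned to GRCm39 with HISAT2 and counted with featureCounts. The methods also name RSEM. Versions given for featureCounts differ, and strand use and the handling of multiply mapped reads are not given in the sources used here.

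Counts were analysed with edgeR 4.0.16 in R 4.3.3: filterByExpr with a minimum count of 10 (13812 genes, 99.9% of reads), TMM scaling, 1 quasi-likelihood fit of all 9 libraries with group as the only term (6 residual degrees of freedom), and Benjamini-Hochberg adjustment over all tested genes with a threshold of 0.05. SE were derived from each fold change and its F statistic. CPM are counts relative to the TMM-scaled library total, whose factors lay between 0.983 and 1.015. No pair of replicates agreed within counting noise (chi-square per degree of freedom 2.31 to 8.4), so none was taken for a repeated library. Total counts of 12250628 to 18515456 limit the precision of low genes such as Traf1. Ratios of raw counts were tested by exact permutation over the 3 groups (1680 arrangements). Correlations used log2 CPM with a prior count of 2.

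All 10 members and Tnf, Tradd, Fadd, Tnfaip3, Cyld, Ripk3, Mlkl and Relb were named whatever their values, with up to 2 higher and 2 lower called genes of largest change per pathway list and comparison. Genes with at most 3 counts were named after their values were seen. One gene that the rule names is not reported here. Members and lists were chosen with earlier results of these data known. The lists and markers were assembled by hand from general knowledge. Alternatives were DESeq2 1.42.0, limma-voom (limma 3.58.1), RLE factors, library size only, other filters, 2 groups only, a replicate block, thinning, and leaving out each library. The procedure was also run on simulated data in which few genes changed, unlike the 48 h comparisons here. The outcome of that run is not reported here.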

Additional observations from a re-analysis of the deposited data

Results flagged for a closer look

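Expression differed between the 24 h and 48 h groups in 6 members, by the edgeR test of 48 h versus 24 h over all tested genes, in which 49.1% of genes were called. On the log2 scale Tnfrsf1a was higher at 48 h than at 24 h by 0.12, Ripk1 by 0.18, Cflar by 0.28 and Tnfrsf1b by 0.34, while Traf3 fell by 0.42 and Traf1 fell by 1.25. Both time points were set against the same control libraries. The test compares the time points directly and does not use those libraries other than for the shared estimate of the spread.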

How the results depend on the processing

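The 7 calls of members at 48 h versus control, 5 higher and 2 lower, were kept under all 18 alternatives, and the joint test called 7 members under all 17. At 24 h versus control the count of members was 0 in each direction except without control replicate 3, which gave 1 higher and 1 lower (range 0 to 1 over single libraries left out). All genes called at 24 h ranged from 518 to 1475 over single libraries left out, the highest without control replicate 3 and the lowest without 24 h replicate 3. Pathway genes higher at 24 h numbered 3 with DESeq2, no filter and the replicate block, 2 with RLE factors and thinning, and 1 to 4 without single libraries (4 without control replicate 2 or 24 h replicate 2), while 1 was lower with no filter. From 24 h to 48 h 2 members were higher with no filter, where Tnfrsf1a (adjusted p = 0.160) and Ripk1 (0.0569) lost their calls, and 3 to 5 without single libraries. Birc3 was called over that interval with library size only (0.0483) and with only the 2 groups compared (0.0298).

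The log2 fold change of Birc2 at 24 h, -8.4e-05, turned positive with DESeq2 (0.0064), RLE factors (0.0062), no filter (0.015), at least 1 CPM in 3 libraries (0.0036), thinning (0.040) and only the 2 groups compared (0.0036), and ranged from -0.023 to 0.051 without single libraries. Other uncalled genes changed sign without single libraries. At 24 h the ranges were -0.046 to 0.19 for Tnf, -0.18 to 0.00032 for Tradd, -0.077 to 0.013 for Fadd and -0.072 to 0.12 for Cyld. At 48 h versus control they were -0.088 to 0.0066 for Traf2, -0.0086 to 0.11 for Birc2, -0.088 to 0.019 for Casp8, -0.32 to 0.017 for Tnf, -0.088 to 0.095 for Tradd, -0.052 to 0.10 for Fadd and -0.013 to 0.18 for Cyld. From 24 h to 48 h they were -0.0087 to 0.086 for Birc2, -0.022 to 0.084 for Casp8 and -0.013 to 0.14 for Fadd. For each ratio, the log2 difference between the groups that lay farthest apart was followed. At 48 h minus control it ranged from 0.361 to 0.663 for Birc3 to Birc2 and from 0.396 to 0.585 for Cflar to Casp8. At 48 h minus 24 h it ranged from 0.185 to 0.250 for Tnfrsf1b to Tnfrsf1a. The cause of these shifts was not tested.

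Samples of the same replicate number deviated from their group means with correlations of -0.049 to 0.078 over all tested genes. These values show no pairing by number, but they cannot show that there was none. With the replicate block 958, 6468 and 6810 genes were called at 24 h versus control, 48 h versus control and 48 h versus 24 h, and the members' counts were unchanged. Among the members Traf1 had the fewest counts, 39 to 62 per library at 48 h.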
